A study of Mus musculus with 9 samples.

Results

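The SR proteins, hnRNP proteins, SF3 subunits and related pre-mRNA splicing factors were examined in Ly6G+ neutrophils of 3 compartments (bone marrow, blood and pancreatic tumor) of mice with pancreatic ductal adenocarcinoma (PDAC). Genes were taken by symbol, which gave 60 of the 46517 genes listed. The set was chosen with earlier results of these data known. These were 11 SR protein genes (Srsf), 2 TRA2 genes, 20 hnRNP genes (Hnrnp), both U2AF genes, 9 SF3A and SF3B genes, 3 RBM genes (Rbm5, Rbm25 and Rbm39) and 13 PRPF genes. All 9 libraries came from C57BL/6 mice on day 27 after tumor cells had been injected into the pancreas (orthotopic transplanted, OT, mice), with 3 libraries each from bone marrow, blood and tumor. The tumor cells were a luciferase-expressing line derived from a genetic mouse model of PDAC, so that all tumors stemmed from a single line. Every library was made from pooled mice, and no tumor-free mice were analysed here. The methods give the same gate for the 3 compartments (CD45+, negative for CD3, B220 and NK1.1, Ly6G+ and Ly6C+), whereas the sample titles call the bone marrow cells Ly6G.hi and the others Ly6G+. The labels do not say that the 3 libraries of a compartment came from separate animals. The methods describe separate experiments, and the p-values measure the spread between these libraries only.

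Introns are removed from pre-mRNA by the spliceosome, which is assembled on each intron from small nuclear ribonucleoproteins (snRNPs). U2AF and the SF3 complexes of the U2 snRNP recognise the 3′ splice site and the branch point, and PRPF proteins build and remodel the tri-snRNP and the catalytic spliceosome. SR and TRA2 proteins bind exonic enhancers and generally favor exon inclusion, whereas hnRNP proteins often act in the other direction, so that the balance among these factors affects which exons are kept. Many of these genes also regulate their own mRNA through alternative exons that introduce early stop codons.

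All 12 neutrophil markers (among them S100a8, Ly6g, Csf3r and Cxcr2) were detected in the 3 compartments. Their summed level in RPM (reads per 1000000 reads of the library) was 83500 to 86240 for bone marrow, 36980 to 37470 for blood and 16930 to 20420 for tumor. Cell cycle markers (15 genes) summed to 870 to 1208 RPM for bone marrow, 61.3 to 66.6 for blood and 533 to 824 for tumor. Markers of immature neutrophils (8 genes) gave 41140 to 47420, 1163 to 2290 and 4941 to 7497 in the same order. In tumor libraries, markers of other cells were also present. Epithelial markers (11 genes) reached 2931 to 6190 RPM there against at most 202.5 elsewhere, fibroblast markers (9 genes) 1284 to 1552 against at most 9.99, and acinar markers (8 genes) 556 to 2371 against at most 7.47. Macrophage and monocyte markers (10 genes) lay at 538 to 596 for bone marrow, 1460 to 1671 for blood and 621 to 836 for tumor. Lymphocyte markers (9 genes) were highest in blood, at 71.5 to 124.9, as were red cell and platelet markers (9 genes), at 774 to 1016. In bone marrow Cldn4, Pdgfra, Amy2a5, Try5 and Gzmb were at 0, in blood Ms4a7, Lum, Pdgfrb and Amy2a5, and in tumor Ncr1. Fewer cells of a type and less RNA per cell cannot be told apart in these bulk libraries.

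The deposited values were log2 FPKM. Total reads recovered from them ranged from 4580807 to 7949367 per library. Of the 60 splicing factor genes, 53 exceeded a log2 FPKM of 0 in 3 or more libraries and were tested with limma (Benjamini-Hochberg adjusted p under 0.05 over all 7794 genes tested), and 7 were not. A gene high in 1 compartment alone could pass this filter. Prpf3, Prpf4 and Prpf4b passed it only through their tumor libraries, which bears on their calls as higher in tumor. In a single library the 53 genes held from 12 to 6955 reads, with a median per-gene average of 476.8. Over all genes tested that median was 194.8, so shares of the set and of all genes rest on different depths.

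How the share of splicing factor mRNAs compared between compartments depended on the scaling of the libraries. All 60 genes together held 0.576 to 0.631% of all reads for bone marrow, 0.592 to 0.655% for blood and 0.838 to 0.877% for tumor. Against the scaled library sizes behind the deposited values the ranges were 0.707 to 0.724% for bone marrow, 0.724 to 0.763% for blood and 0.694 to 0.808% for tumor, where the compartments overlapped and tumor replicate 3 was the lowest library. The roles differed from each other. Per total reads, SR protein genes took 770 to 861 RPM for bone marrow, 583 to 780 for blood and 1328 to 1492 for tumor, and TRA2 genes 168 to 192, 97.8 to 129.2 and 353 to 485. Per scaled size the tumor libraries were also above all others for both roles, at 1132 to 1375 against at most 1024 for SR protein genes and 289 to 447 against at most 241 for TRA2 genes. By contrast, the 3 RBM genes took 754 to 815 RPM for bone marrow, 1029 to 1120 for blood and 825 to 966 for tumor, so that blood was highest, as it was per scaled size. Sf3b1, Hnrnpk, Rbm39, Hnrnpa2b1 and Hnrnpf, the 5 genes with the most reads, made up 37.8 to 45.8% of the reads of the set.

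Tumor was compared with blood to ask how the circulating and the infiltrating cells differ. Of the 53 genes tested, 22 (41.5%) rose in tumor against blood, beside 28.1% of all genes tested, and 8 (15.1%) fell, beside 34.5%. In either direction 30 genes (56.6%) passed, beside 62.6%. The median log2 fold change was 0.35 over the splicing factor genes and -0.17 over all genes, and 40 of the 53 genes lay above the latter. The largest rises were in Prpf19, Hnrnpa1, Prpf31 and Hnrnpa3, and the largest falls in Rbm5, Sf3b2 and Prpf18. Tumor against bone marrow gave 14 higher genes (26.4%, beside 22.4% of all genes) and 4 lower (7.55%, beside 32.9%), with a median of 0.13 against -0.21, and the 18 in either direction (34.0%) stood beside 55.3%. The count of 14 fell to 8 without bone marrow replicate 2 and also to 8 without tumor replicate 2, and to 6 with no filter on low values. Blood against bone marrow had the opposite balance, with 7 genes higher (13.2%, beside 20.6%) and 15 lower (28.3%, beside 23.6%) and a median of -0.28 against -0.04, or 22 in either direction (41.5%, beside 44.2%). These comparisons share libraries and are not independent of each other. Epithelial, fibroblast and acinar markers were high in the same tumor libraries, and their part in the tumor results was not tested.

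The scaling of the libraries mattered for the tumor comparisons. Scaling by plain library totals in place of the scaled sizes behind the deposited values moved the median of all genes by 0.45 in tumor against blood and by 0.45 in tumor against bone marrow. The splicing factor genes then split into 37 higher and 3 lower against blood, and 34 higher and 2 lower against bone marrow. Of all 7794 genes tested, 2923 were then higher and 1898 lower against blood. Against bone marrow 2601 were higher and 1634 lower. Relative to the median of all genes, the median of the set was 0.52 higher in tumor against blood and 0.34 higher in tumor against bone marrow, which plain totals leave as they are because they move all genes alike. With quantile normalization these differences were 0.73 and 0.55. Under plain totals, Hnrnpc and Prpf38b changed sign against blood, and Hnrnpc, Hnrnpl, Prpf38b, Rbm39 and Sf3b1 were no longer called lower. Under quantile normalization no call against blood changed sign, and those of Hnrnpc, Prpf38b, Sf3a1 and Sf3b1 were lost.

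**Figure D1:**
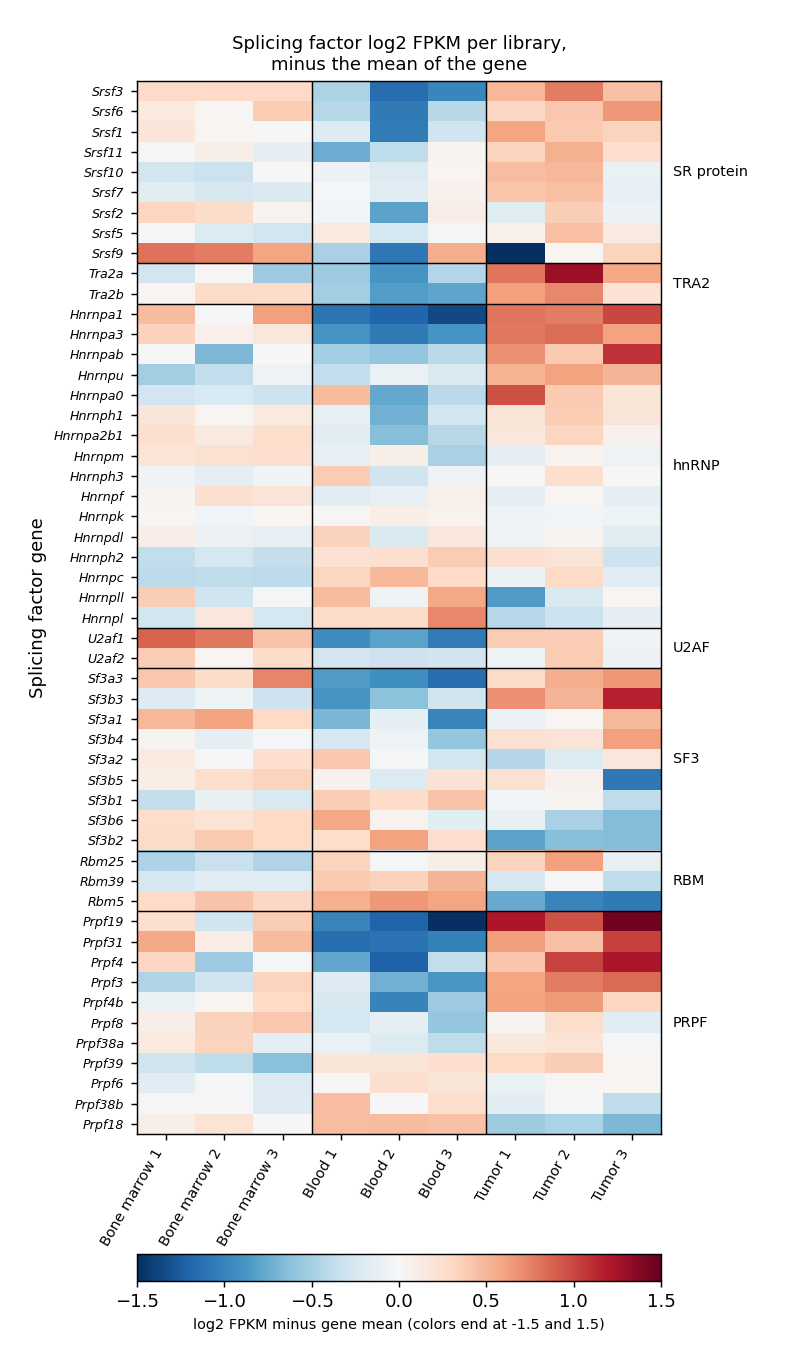
Log2 FPKM of the splicing factor genes tested, 1 left out (rows, grouped by role) in each of the 9 libraries (columns), minus the mean of the gene over the libraries. Red is above and blue below the mean, and colors end at -1.5 and 1.5. Blood columns are mostly blue for the SR, TRA2 and PRPF genes at the top of each group, where tumor columns are red, and Rbm5, Sf3b2 and Prpf18 are blue in the 3 tumor libraries.

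Blood was the compartment in which the set was most often lowest. In 12 of the 53 genes (22.6%, beside 13.0% of all genes tested) blood was lower than both other compartments by the test: Hnrnpa1, Hnrnpa2b1, Hnrnpa3, Hnrnph1, Prpf19, Prpf31, Sf3a1, Sf3a3, Srsf3, Srsf6, Tra2b and U2af1. The call of Hnrnph1 between blood and bone marrow was lost under 10 of 22 other settings, among them leaving out any bone marrow replicate or blood replicate 2 or 3, and that of Sf3a1 between tumor and blood under 9 of 21, among them leaving out bone marrow replicate 1, blood replicate 1 or 3 or tumor replicate 2 or 3. The 3 blood libraries lay below all others in 16 genes (30.2%, beside 15.4%) and above all others in 6 (11.3%, beside 19.1%). The tumor libraries lay above all others in 15 (28.3%, beside 19.7%) and below in 3 (5.66%, beside 25.9%), and those of bone marrow above in 4 (7.55%, beside 16.0%) and below in 4 (7.55%, beside 8.4%). In 5 genes (9.43%, beside 13.8%) blood was higher than both, namely Hnrnpc, Hnrnpl, Prpf18, Rbm39 and Sf3b1. Tumor was higher than both in 9 genes (17.0%, beside 16.5%), a share close to that of all genes: Hnrnpa1, Hnrnpa3, Hnrnpab, Hnrnpu, Prpf19, Prpf3, Prpf4, Sf3b3 and Tra2a. It was lower than both in only 3 (5.66%, beside 23.7%), Prpf18, Rbm5 and Sf3b2. Bone marrow was higher than both in 0 genes by limma, beside 10.8% of all genes, with 0 also at an unadjusted p under 0.05, and limma-voom on the recovered reads gave 0 and 2. Conversely, Hnrnpc and Prpf39 were lower there than in both others (3.77%, beside 6.68%). Among the cell cycle markers all 15 were lower in blood than in bone marrow and 14 of 15 higher in tumor than in blood by the same test, and all 8 immature neutrophil markers fell from bone marrow to blood. Their part in the splicing factor result was not tested. By the order of the means, 18 genes ran tumor, bone marrow, blood from the highest to the lowest, 9 blood, bone marrow, tumor, and 9 bone marrow, tumor, blood, with the other 17 in the remaining orders.

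**Figure D2:**
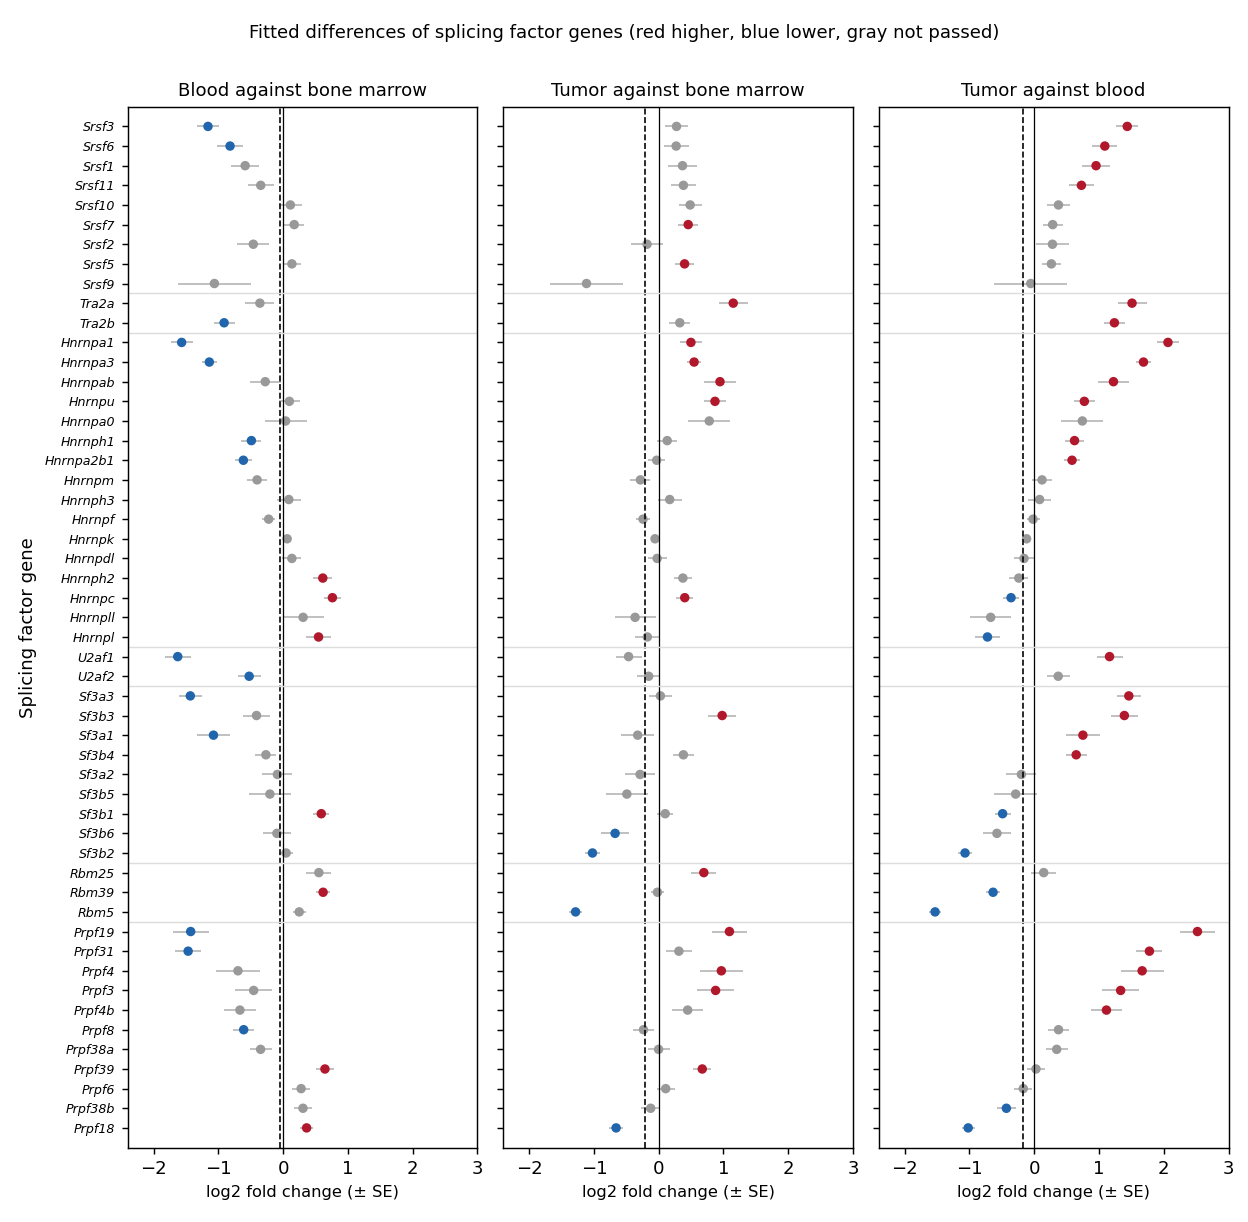
Log2 fold change with its standard error (x axis) of the splicing factor genes tested, 1 left out (rows, in the order of the plot by library) for blood against bone marrow, tumor against bone marrow and tumor against blood. Red points were higher and blue points lower at a limma adjusted p under 0.05, gray points did not pass, and the dashed line is the median of all genes tested. In tumor against blood 22 points are red and 8 blue.

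Among the SR proteins, 4 of the 9 tested genes rose in tumor against blood (Srsf1, Srsf3, Srsf6 and Srsf11) and the other 5 did not pass. In tumor against bone marrow 2 rose (Srsf5 and Srsf7), and 2 fell in blood against bone marrow (Srsf3 and Srsf6). The shares of all genes tested given above for each comparison apply to these counts and to those of the other roles. Srsf3, the smallest SR protein and a factor in mRNA export, had log2 FPKM values of 4.06, 4.06 and 4.07 in bone marrow, 3.29, 2.63 and 2.79 in blood, and 4.27, 4.54 and 4.22 in tumor. The blood libraries lay below the other 6, and tumor lay above bone marrow without passing the test between them. Its log2 fold change was 1.44 ± 0.17 (SE) in tumor against blood (limma, adjusted p = 0.0002) and -1.16 ± 0.17 in blood against bone marrow (adjusted p = 0.00124). Srsf5, which held the most reads of the SR genes, had values of 6.02, 5.85 and 5.77 in bone marrow, 6.21, 5.79 and 6.04 in blood, and 6.13, 6.51 and 6.19 in tumor. Blood overlapped bone marrow, and the difference of tumor from bone marrow was 0.40 ± 0.14 (limma, adjusted p = 0.0453). That call was lost under 10 of 22 other settings, among them leaving out bone marrow replicate 2 or 3, blood replicate 3 or tumor replicate 2 or 3. The rise of Srsf7 against bone marrow was lost under 11 of 22, among them leaving out any bone marrow replicate, blood replicate 1 or 3 or tumor replicate 1 or 2. Srsf2, Srsf9 and Srsf10 passed in no comparison. In Srsf9, tumor replicate 1 (-1.58) stood below the others (-0.01 and 0.29).

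Both TRA2 genes, which encode SR-like proteins that bind GAA-rich exonic enhancers, rose in tumor against blood. Tra2a (chr6:49243924-49264033, minus strand, GRCm38) had log2 FPKM values of 2.20, 2.48 and 1.94 in bone marrow, 1.93, 1.59 and 2.03 in blood, and 3.27, 3.76 and 3.04 in tumor. All tumor libraries were above the other 6, and bone marrow and blood overlapped. The log2 fold change was 1.51 ± 0.22 against blood (limma, adjusted p = 0.000612) and 1.15 ± 0.22 relative to bone marrow (adjusted p = 0.00311), and both calls were kept under 22 other settings. Tra2b rose by 1.24 ± 0.16 on the log2 scale against blood (limma, adjusted p = 0.000316). Blood was also below bone marrow in Tra2b (-0.91 ± 0.16, adjusted p = 0.00288), whereas tumor against bone marrow was 0.33 ± 0.16 and did not pass (adjusted p = 0.123).

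Of the 16 hnRNP genes tested, 6 rose in tumor against blood (Hnrnpa1, Hnrnpa2b1, Hnrnpa3, Hnrnpab, Hnrnph1 and Hnrnpu) and 2 fell (Hnrnpc and Hnrnpl). The fall of Hnrnpc was lost under 14 of 22 other settings, among them leaving out any library but tumor replicate 2, and its rise in tumor over bone marrow under 6, among them leaving out any bone marrow replicate or tumor replicate 2. Hnrnpa1 encodes a repressor of exon inclusion that binds UAG-containing silencers. Its log2 FPKM was 4.20, 3.70 and 4.34 in bone marrow, 2.64, 2.53 and 2.38 in blood, and 4.53, 4.49 and 4.73 in tumor, with no overlap between the compartments. The log2 fold change was 2.07 ± 0.17 in tumor against blood (limma, adjusted p = 3.1e-05) and -1.57 ± 0.17 in blood against bone marrow (adjusted p = 0.000291). Between tumor and bone marrow it was 0.50 ± 0.17 (adjusted p = 0.0379), a call lost under 9 of 22 other settings, among them leaving out bone marrow replicate 1 or 2, blood replicate 2 or any tumor replicate. Hnrnpa1 (chr15:103240432-103246692, plus strand) has processed copies elsewhere in the genome that could share its reads, and how such reads were counted is not given in the sources used here. The same could hold for other genes of the set and was not examined. Hnrnpa3, a relative of Hnrnpa1, followed the same order, with a rise of 1.69 ± 0.11 against blood (limma, adjusted p = 1.2e-05) and of 0.55 ± 0.11 over bone marrow (adjusted p = 0.00416).

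Hnrnpab and Hnrnpu were raised in tumor without a difference between blood and bone marrow that passed the test. Hnrnpab, an mRNA-binding hnRNP, had values of 1.24, 0.56 and 1.25 in bone marrow, 0.73, 0.65 and 0.83 in blood, and 1.93, 1.63 and 2.32 in tumor. The tumor libraries were highest, and the log2 fold change was 1.22 ± 0.24 against blood (limma, adjusted p = 0.00271), while over bone marrow it was 0.95 ± 0.24 (adjusted p = 0.0112), the latter lost with no filter on low values (adjusted p = 0.0569). Hnrnpu, a chromatin- and RNA-binding scaffold protein, was 0.77 ± 0.16 higher than in blood (limma, adjusted p = 0.00372) and 0.87 ± 0.16 higher than in bone marrow (adjusted p = 0.00257). Hnrnpc, which binds uridine tracts, and Hnrnpl, which binds CA repeats, were instead highest in blood, with log2 fold changes against bone marrow of 0.76 ± 0.13 (limma, adjusted p = 0.00247) and 0.55 ± 0.19 (adjusted p = 0.0492). The latter was lost under 14 of 21 other settings, among them leaving out any library but bone marrow replicate 2.

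Hnrnpk, a protein that binds C-rich RNA, was the steadiest of the abundant members. Its log2 FPKM was 6.14, 6.09 and 6.15 in bone marrow, 6.15, 6.23 and 6.19 in blood, and 6.06, 6.09 and 6.06 in tumor. The largest fitted difference was -0.12 ± 0.06 in tumor against blood (limma, adjusted p = 0.134). The sign followed the scaling, with 0.33 under plain library totals (adjusted p = 0.00606) and 0.46 under quantile normalization (adjusted p = 0.00117). Hnrnpk was called lower in tumor than in blood with no filter on low values (-0.12, limma, adjusted p = 0.0437) and under median centring (-0.18, adjusted p = 0.0459). Per kilobase of annotated exon, Hnrnpk was also the highest of the set in each compartment, at 132.0 ± 3.3 reads per 1000000 scaled reads for bone marrow, 137.7 ± 3.8 for blood and 126.9 ± 1.7 for tumor (SD, n = 3). Hnrnpf came next in each (127.7 ± 8.9, 109.4 ± 10 and 108.0 ± 8.1), and in bone marrow the difference between both genes was smaller than the SD of Hnrnpf. Hnrnpa0, Hnrnpdl, Hnrnpf, Hnrnph3, Hnrnpll and Hnrnpm likewise passed in no comparison.

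U2af1 and U2af2 encode the subunits that contact the AG and the pyrimidine tract of the 3′ splice site. U2af1 (chr17:31647081-31658892, minus strand) had log2 FPKM values of 1.25, 1.16 and 0.79 in bone marrow, -0.57, -0.44 and -0.68 in blood, and 0.76, 0.74 and 0.31 in tumor. Blood lay below all others, from 31 to 48 reads per library against 115 to 186 in the other 6. This was the largest change between blood and bone marrow among the 53 genes tested (-1.63 ± 0.20, limma, adjusted p = 0.000528), and tumor was 1.16 ± 0.20 above blood (adjusted p = 0.00137). In U2af2 the values were 1.11, 0.77 and 1.01 in bone marrow, 0.45, 0.42 and 0.44 in blood, and 0.66, 1.11 and 0.65 in tumor. Blood was again lowest, by 0.53 ± 0.18 against bone marrow (limma, adjusted p = 0.0431), a call lost under 12 of 21 other settings, among them leaving out bone marrow replicate 1 or 3, tumor replicate 1 or any blood replicate.

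The SF3 subunits, which hold the branch point as parts of the U2 snRNP, did not move together. Of the 9 genes, 4 rose in tumor against blood (Sf3a1, Sf3a3, Sf3b3 and Sf3b4), 2 fell (Sf3b1 and Sf3b2), and Sf3a2, Sf3b5 and Sf3b6 did not pass. Sf3b3 (chr8:110810239-110846787, minus strand) had log2 FPKM values of 1.26, 1.38 and 1.15 in bone marrow, 0.57, 0.83 and 1.15 in blood, and 2.14, 1.96 and 2.62 in tumor. All tumor libraries were above the rest, and the log2 fold change was 1.39 ± 0.21 against blood (limma, adjusted p = 0.000734) and 0.98 ± 0.21 relative to bone marrow (adjusted p = 0.00542). Sf3b2 (chr19:5273932-5295455, minus strand) went the other way, with 4.07, 4.17 and 4.08 in bone marrow, 4.04, 4.39 and 4.03 in blood, and 2.98, 3.15 and 3.13 in tumor. The tumor libraries lay below all others, and the log2 fold change was -1.07 ± 0.11 against blood (limma, adjusted p = 0.000102) and -1.02 ± 0.11 relative to bone marrow (adjusted p = 0.00016). These 4 calls of Sf3b3 and Sf3b2 were kept under every other setting in which the genes were tested.

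Sf3b1, the largest SF3B subunit and the one that cradles the branch helix, held the most reads of the SF3 genes. Its log2 FPKM was 4.05, 4.30 and 4.18 in bone marrow, 4.77, 4.68 and 4.84 in blood, and 4.36, 4.44 and 4.02 in tumor. Blood was above all others, by 0.59 ± 0.12 against bone marrow (limma, adjusted p = 0.00657). Tumor was lower than blood (-0.49 ± 0.12, adjusted p = 0.00957), a difference of -0.04 under plain library totals (adjusted p = 0.759) and under quantile normalization (adjusted p = 0.745). Sf3a3 had values of 1.13, 0.99 and 1.45 in bone marrow, -0.12, -0.20 and -0.42 in blood, and 1.01, 1.27 and 1.37 in tumor. It was thus low in blood, by 1.43 ± 0.18 against bone marrow (limma, adjusted p = 0.000584), with tumor and bone marrow overlapping.

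Rbm5 (chr9:107740371-107770996, minus strand), a splicing regulator of apoptosis genes, had log2 FPKM values of 3.55, 3.67 and 3.56 in bone marrow, 3.78, 3.90 and 3.83 in blood, and 2.48, 2.25 and 2.18 in tumor. The tumor libraries were far below the other 6, with 1063 to 1104 reads against 1662 to 2551. The log2 fold change was -1.53 ± 0.10 against blood (limma, adjusted p = 1.04e-05) and, relative to bone marrow, -1.28 ± 0.10 (adjusted p = 2.62e-05), the largest falls among the 53 genes tested, and both were kept under 22 other settings. Rbm39, a U2AF-related coactivator, had values of 3.69, 3.8 and 3.77 in bone marrow, 4.35, 4.30 and 4.47 in blood, and 3.69, 3.95 and 3.58 in tumor. Blood was highest, by 0.62 ± 0.11 against bone marrow (limma, adjusted p = 0.00264), and tumor overlapped bone marrow. Rbm25 rose in tumor against bone marrow (0.70 ± 0.19, limma, adjusted p = 0.0164) and did not pass in the other comparisons.

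Of the 12 PRPF genes tested, 5 rose in tumor against blood (Prpf3, Prpf4, Prpf4b, Prpf19 and Prpf31) and 2 fell (Prpf18 and Prpf38b), with that of Prpf38b lost under 9 of 22 other settings, among them leaving out blood replicate 1 or 3 or tumor replicate 1 or 3. Prpf19 (chr19:10895231-10909559, plus strand), the ubiquitin ligase of the spliceosome-activating complex, had log2 FPKM values of 0.81, 0.26 and 0.94 in bone marrow, -0.43, -0.64 and -1.20 in blood, and 1.77, 1.51 and 2.01 in tumor. No compartments overlapped, and reads ran from 29 to 51 in blood to 303 to 458 in tumor. The rise of 2.52 ± 0.28 on the log2 scale against blood (limma, adjusted p = 0.000125) was the largest among the 53 genes tested, and tumor was 1.09 ± 0.28 above bone marrow (adjusted p = 0.0107), which narrowly missed with no filter on low values (adjusted p = 0.051).

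Prpf3, Prpf4 and Prpf31 encode proteins of the U4/U6 snRNP. Prpf31 had values of 1.16, 0.72 and 1.08 in bone marrow, -0.53, -0.51 and -0.41 in blood, and 1.23, 1.04 and 1.62 in tumor. The blood libraries were below all others, with log2 fold changes of -1.47 ± 0.20 against bone marrow (limma, adjusted p = 0.000854) and 1.78 ± 0.20 in tumor against blood (adjusted p = 0.000148). Prpf4 had values of 0.48, -0.38 and 0.14 in bone marrow, -0.61, -1.05 and -0.20 in blood, and 0.58, 1.18 and 1.38 in tumor, and Prpf3 -0.68, -0.53 and 0.10, -0.42, -0.96 and -1.11, and 0.36, 0.55 and 0.62 in the same order. In both genes tumor lay above the other 6 libraries while blood and bone marrow overlapped. Tumor was above blood by 1.67 ± 0.33 in Prpf4 (limma, adjusted p = 0.00291) and by 1.33 ± 0.28 in Prpf3 (adjusted p = 0.00381). Both genes passed the filter only through their tumor libraries, as did Prpf4b, because too few other libraries exceeded a log2 FPKM of 0. Against bone marrow, the differences of 0.97 ± 0.33 in Prpf4 (limma, adjusted p = 0.039) and 0.88 ± 0.28 in Prpf3 (adjusted p = 0.0297) were each lost under 6 of 21 other settings, among them leaving out bone marrow replicate 2 or tumor replicate 2 or 3 for either gene, bone marrow replicate 3 or blood replicate 1 for Prpf4, and bone marrow replicate 1 for Prpf3.

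Prpf18, which acts in the second step of splicing, was the third gene lower in tumor than in both. Its log2 FPKM was 1.94, 2.05 and 1.85 in bone marrow, 2.32, 2.33 and 2.28 in blood, and 1.32, 1.37 and 1.18 in tumor, with no overlap. Tumor fell by 1.02 ± 0.10 on the log2 scale against blood (limma, adjusted p = 8.35e-05) and, relative to bone marrow, by 0.66 ± 0.10 (adjusted p = 0.00101), the latter being -0.21 under plain library totals (adjusted p = 0.1). Blood was 0.36 ± 0.10 above bone marrow (limma, adjusted p = 0.0232), a call lost under 7 of 22 other settings, among them leaving out any blood replicate or bone marrow replicate 1 or 3. Prpf39, a U1-associated protein, was lower in bone marrow than in both others, with differences of 0.67 ± 0.14 for tumor (limma, adjusted p = 0.00462) and 0.65 ± 0.14 for blood (adjusted p = 0.00786). Prpf8, the core protein that holds the catalytic RNA, fell in blood against bone marrow (-0.61 ± 0.16, limma, adjusted p = 0.0186), a call lost with no filter and without bone marrow replicate 2 or 3 or blood replicate 3. Prpf6 and Prpf38a passed in no comparison.

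**Figure D3:**
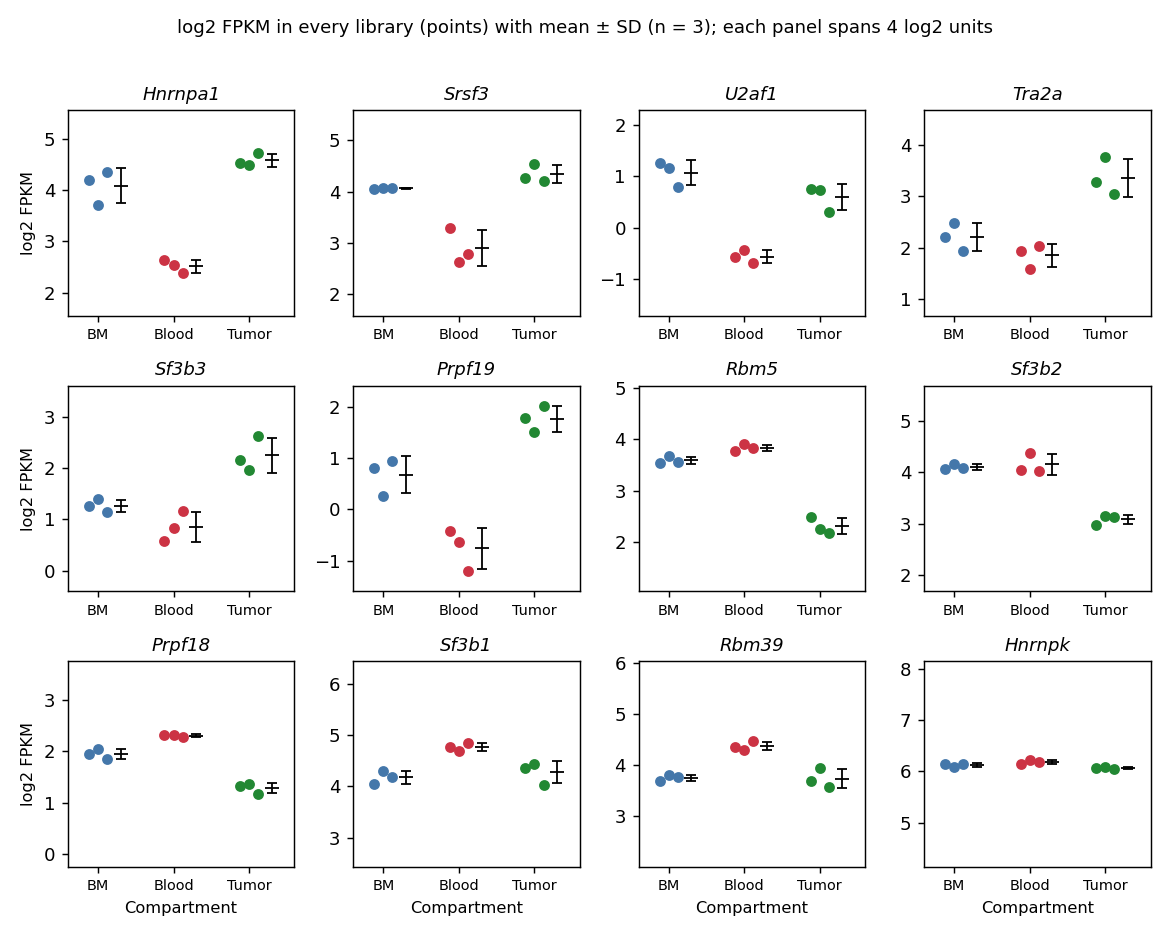
Log2 FPKM of 12 splicing factor genes in each library (points) with the mean and SD of each compartment (n = 3), BM being bone marrow; every panel covers 4 log2 units at its own level. Hnrnpa1, Srsf3, U2af1 and Prpf19 are lowest in blood, Tra2a and Sf3b3 highest in tumor, Rbm5, Sf3b2 and Prpf18 lowest in tumor, Sf3b1 and Rbm39 highest in blood, and Hnrnpk varies by less than 0.2.

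The 7 genes under the filter were Srsf4, Srsf12, Hnrnpd, Hnrnpr, Hnrnpul1, Hnrnpul2 and Prpf40b. With a filter on reads in place of one on FPKM, 6 of them could be tested. The FPKM used a gene length that for most genes was the genomic span, so failing the filter need not mean few reads. Hnrnpr held 92 to 385 reads per library and Hnrnpul1 112 to 223, while Srsf9, which was tested, held 12 to 67. Hnrnpr was higher in tumor than in blood (1.04 ± 0.22, limma, adjusted p = 0.00426), with log2 FPKM values of -0.65, -0.61 and -0.02 in bone marrow, -1.06, -0.89 and -1.03 in blood, and 0.12, 0.01 and 0.00 in tumor. Hnrnpul1 was lower in tumor than in blood (-0.71 ± 0.18, limma, adjusted p = 0.0106) and bone marrow (-0.66 ± 0.18, adjusted p = 0.0173). Prpf40b, a U1-linked factor, had 1, 4 and 0 reads in bone marrow, 2, 10 and 3 in blood, and 44, 28 and 54 in tumor. Its tumor libraries lay above all others, and the test passed against bone marrow (limma, adjusted p = 0.00497) but not against blood (adjusted p = 0.0597). Srsf12 had 1 read in blood replicate 1 and 1 in tumor replicate 2, and Srsf4, Hnrnpd and Hnrnpul2 passed in no comparison.

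The ratio of 2 genes within a library does not depend on the scaling. The 7 pairs given were chosen after the values were seen and carry no test. Sf3b3 had 0.22 to 0.24 reads per read of Sf3b2 for bone marrow, 0.14 to 0.23 for blood and 0.74 to 1.19 for tumor, so that the balance of these subunits of a single complex was higher in tumor than in all other libraries. Srsf3 over Rbm5 ran from 0.46 to 0.50 for bone marrow, 0.14 to 0.25 for blood and 1.20 to 1.70 for tumor, with no overlap. In blood, several ratios fell. Srsf3 over Srsf7 was 1.95 to 2.04 for bone marrow, 0.68 to 1.02 for blood and 1.5 to 2.10 for tumor, and U2af1 over U2af2 was 0.56 to 0.86, 0.30 to 0.36 and 0.51 to 0.70. Hnrnpa1 over Hnrnpa2b1 was 0.13 to 0.19, 0.08 to 0.10 and 0.20 to 0.29, and Hnrnpa1 over Hnrnpc was 0.29 to 0.45, 0.07 to 0.08 and 0.31 to 0.50. In these 4 pairs blood lay below both other compartments. Tra2a over Tra2b was 0.60 to 0.87 in bone marrow, lower than the 1.02 to 1.34 in blood and 1.19 to 1.56 in tumor, which overlapped.

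**Figure D4:**
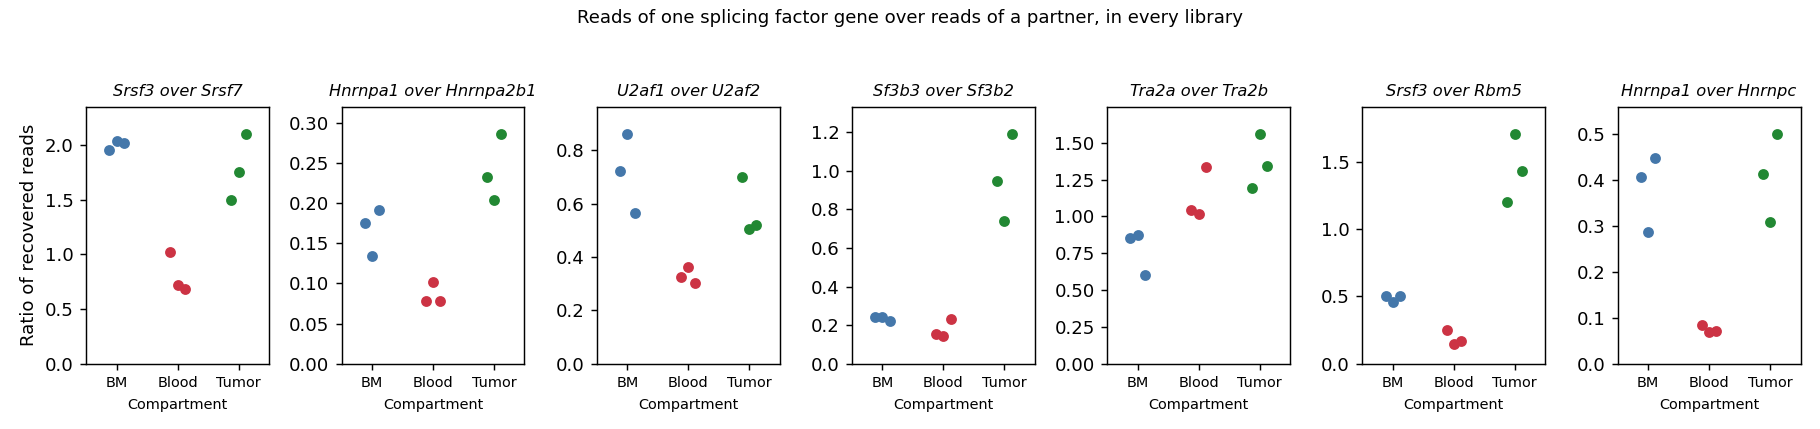
Reads of a splicing factor gene divided by reads of a partner gene (y axis, each panel from 0 on its own scale) in every library of bone marrow (BM), blood and tumor. The blood points lie lowest for Srsf3 over Srsf7, Hnrnpa1 over Hnrnpa2b1, U2af1 over U2af2, Srsf3 over Rbm5 and Hnrnpa1 over Hnrnpc, and Sf3b3 over Sf3b2 is highest in tumor, at 0.74 to 1.19.

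Other genes of the splicing machinery were counted in 11 lists of 138 genes, of which 136 were found and 92 tested. In tumor against blood 33 rose and 22 fell with a median of 0.30, in tumor against bone marrow 10 rose and 15 fell (-0.05), and in blood against bone marrow 12 rose and 29 fell (-0.23). The percentages of all genes given above for these comparisons apply here too. Of the U2 snRNP proteins outside SF3, 7 of 11 tested genes rose in tumor against blood and 1 fell, and of the U4, U5 and U6 proteins outside PRPF, 4 of 9 rose and 1 fell. The gene with the largest change was Htatsf1, a U2 snRNP-associated factor, in the former (1.96 ± 0.45, limma, adjusted p = 0.00579) and Usp39, a tri-snRNP protein, in the latter (1.94 ± 0.60, adjusted p = 0.0225). Snrpa, an RNA-binding protein of the U1 snRNP, rose by 3.09 ± 0.23 (limma, adjusted p = 1.89e-05) as 1 of 2 genes that rose among 4 tested U1 snRNP genes, and Lsm6 of the U6-binding LSm ring by 1.96 ± 0.43 (adjusted p = 0.00474) as the 1 that rose of 4. In the Sm core only 1 gene was tested, and it did not pass.

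Among the kinases and helicases more genes fell than rose, as over all genes tested (28.1% rose and 34.5% fell in tumor against blood). These lists are too small to set their balance apart from that of all genes. Of 6 tested SR protein kinase and phosphatase genes, 1 rose in tumor against blood and 4 fell, and of 7 splicing helicases 1 rose and 4 fell. Srpk2, a kinase that phosphorylates SR proteins, had log2 FPKM values of 0.51, 0.61 and 0.25 in bone marrow, 0.05, 0.43 and 0.23 in blood, and -1.35, -1.66 and -1.94 in tumor (-1.89 ± 0.23 against blood, limma, adjusted p = 0.00023). Dhx38, a helicase of the catalytic steps, fell by 1.21 ± 0.11 (adjusted p = 4.15e-05). Of the 11 SR-related genes, 4 rose and 3 fell, and Rsrp1, an arginine- and serine-rich protein gene, fell by 1.97 ± 0.14 (limma, adjusted p = 1.5e-05). Of 12 PRP19 and activated spliceosome genes, 4 rose and 4 fell, with Ppil1 at 1.71 ± 0.35 (adjusted p = 0.00333). Other alternative splicing regulators split into 7 higher and 2 lower of 19, with Syncrip at 2.72 ± 0.30 (limma, adjusted p = 0.000139). Syncrip exceeded a log2 FPKM of 0 in the tumor libraries alone, so that it passed the filter only through the compartment where it was high. Exon junction and nonsense-mediated decay genes split into 2 higher and 3 lower of 8, with Smg5 at 1.11 ± 0.32 (limma, adjusted p = 0.0172).

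Promoter windows from RefSeq (GRCm38.p6, 250 bases before to 50 after an annotated start) were at hand for 53 of the 60 genes. Windows were also at hand for 27025 genes in all, and for 4837 of the 7794 genes tested, so that the share over tested genes covers only part of them. Of 8 short motifs searched on both strands, ACGTG, the core of the hypoxia response element, lay in a window of 45.3% of the splicing factor genes, against 30.4% of the tested genes and 21.8% of all genes. CCGGAA, an ETS core, lay in 47.2%, against 35.1 and 16.7%. In the same order, the others were TGCGCA (28.3%, 16.6 and 8.79%), GGGCGG (69.8%, 67.7 and 38.2%), CCAAT (54.7%, 43.1 and 41.1%), CACGTG (15.1%, 12.4 and 8.09%), AAGATGG (5.66%, 8.93 and 7.28%) and TATAAA (11.3%, 9.26 and 15.7%). GGGCGG was thus close to its share of the tested genes, and TATAAA was above it though below that of all genes. ACGTG is contained in CACGTG. A gene with several starts had more than 1 chance of a match. Of the 9 genes higher in tumor than in both, 7 held ACGTG and 6 CCGGAA, and of the 2 with a window among the 3 lower in both comparisons, 1 held each. Prpf3 and Prpf4, among the 7 with ACGTG, passed the filter only through their tumor libraries. Of the 12 genes lower in blood than in both, 6 held ACGTG and 5 CCGGAA. Among those higher in blood than in both, 4 had a window, of which 1 held ACGTG and 0 CCGGAA. Such a match describes letters and is not a binding site. The 4 windows that follow belong to genes of the main patterns, Tra2a (higher in tumor), Hnrnpa1 (low in blood), and Rbm5 and Sf3b2 (lower in tumor). Capitals mark the hypoxia response element core, the CCAAT box and the ETS core on either strand, and both the genes and the 3 marked motifs were picked after the counts were seen. The Tra2a window (chr6:49264003-49264302, minus strand) had 1 ACGTG and 1 CCAAT, and that of Hnrnpa1 (chr15:103240147-103240446, plus strand) 2 ACGTG and 4 CCAAT. Rbm5 (chr9:107770953-107771252, minus strand) had 1 CCAAT, and Sf3b2 (chr19:5295408-5295707, minus strand) 1 of each.
Tra2a: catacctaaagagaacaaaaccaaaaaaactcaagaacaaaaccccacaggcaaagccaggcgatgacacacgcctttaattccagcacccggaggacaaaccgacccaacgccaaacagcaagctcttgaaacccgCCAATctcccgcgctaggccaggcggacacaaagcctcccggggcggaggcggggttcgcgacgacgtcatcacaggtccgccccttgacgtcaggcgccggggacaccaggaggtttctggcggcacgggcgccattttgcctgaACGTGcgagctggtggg
Hnrnpa1: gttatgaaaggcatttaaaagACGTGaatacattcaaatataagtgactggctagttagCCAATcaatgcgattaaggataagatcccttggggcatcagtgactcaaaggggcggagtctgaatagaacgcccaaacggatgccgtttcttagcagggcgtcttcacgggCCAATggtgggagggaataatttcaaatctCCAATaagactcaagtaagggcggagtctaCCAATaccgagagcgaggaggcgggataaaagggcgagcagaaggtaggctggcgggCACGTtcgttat
Rbm5: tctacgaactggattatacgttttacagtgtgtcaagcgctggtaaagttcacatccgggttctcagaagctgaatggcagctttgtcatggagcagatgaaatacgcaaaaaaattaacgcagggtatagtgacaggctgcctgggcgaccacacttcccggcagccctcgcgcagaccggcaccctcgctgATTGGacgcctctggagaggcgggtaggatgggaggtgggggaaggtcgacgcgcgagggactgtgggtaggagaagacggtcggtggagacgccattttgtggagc
Sf3b2: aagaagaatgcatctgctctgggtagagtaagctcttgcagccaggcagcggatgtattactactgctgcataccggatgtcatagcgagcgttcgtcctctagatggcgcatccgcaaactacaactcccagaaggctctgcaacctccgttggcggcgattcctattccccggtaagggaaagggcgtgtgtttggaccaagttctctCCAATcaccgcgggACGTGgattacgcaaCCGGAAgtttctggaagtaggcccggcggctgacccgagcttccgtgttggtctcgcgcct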

How the data were processed

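Neutrophil RNA of the 3 compartments was sequenced in 9 libraries. By the methods and the labels, the libraries were SMARTSeq v2, paired reads were mapped to GRCm38 (mm10) with STAR 2.5.2b and counted per gene with featureCounts 1.5.0 on GENCODE annotation, and edgeR 3.8.6 is named in the submitters' processing notes. How strand, intron and multi-mapping reads were counted is not given in the sources used here. The values analysed were log2 FPKM, which the authors calculated and deposited after adding a small constant to the reads and scaling the library sizes. Those scaled sizes were 0.796 to 0.882 times the total reads in bone marrow and blood and 1.085 to 1.22 times in tumor. The gene length behind the FPKM equalled the genomic span for 47 of the 60 splicing factor genes, so levels between genes were compared per kilobase of exon.

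Whole reads were recovered from the steps between values for all 46517 genes (within 0.0001 reads). The recovery and the fit were tested on simulated data. The 7794 genes above a log2 FPKM of 0 in 3 or more libraries were fitted by lmFit and eBayes (trend) of limma 3.58.1 under R 4.3.3, with 1 coefficient per compartment, Benjamini-Hochberg adjustment and a threshold of 0.05. Fold changes are on the deposited log2 scale and are given with SE. Alternatives were no filter, a stricter filter (log2 FPKM over 2), a filter on reads, other pseudocounts and scalings, no trend, robust moderation, limma-voom on the recovered reads, the replicate number as a block, 2 compartments only, and leaving out each library. Genes given with every value were the 6 at most per direction past the threshold in both tumor comparisons with the largest smaller change, the 4 with the largest change between blood and bone marrow, the gene with the most reads per role and those under the filter. Srsf3, Hnrnpr and Srpk2 were given in full outside this rule, after their values were seen, and from each list the gene with the largest change in tumor against blood was named. Gene positions are from GENCODE M21. The genes and lists were chosen with earlier results of these data known. Values of 1 splicing factor gene are not reported here by name, though it is in the counts and medians.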

Additional observations from a re-analysis of the deposited data

How the results depend on the processing

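Over 22 other settings, 221 recomputed counts and medians of the set stayed within 1.5 times the main count or within the spread between libraries. Beyond these limits, 10 counts were smaller, 5 counts were larger and 6 medians moved. With no filter on low values, 6 genes were higher in tumor than in bone marrow and 4 higher than in both other compartments. With the stricter filter, which left 3514 genes in all to test, the counts were 11 higher in tumor than in blood, 8 higher than in bone marrow, 3 higher than in both and 8 lower in blood than in bone marrow, and the median of tumor against bone marrow was 0.27. Under it, 12 of the 30 main calls in tumor against blood and 9 of the 18 in tumor against bone marrow were not tested. In blood against bone marrow 9 of 22 were not tested. No main call of a gene still tested was lost. Plain library totals gave 37 higher and 3 lower against blood, 34 higher and 2 lower against bone marrow and 28 higher than both, with medians of 0.80 and 0.58. Quantile normalization gave 23 higher than in bone marrow and 18 higher than in both, with medians of 0.50 against blood and 0.32 against bone marrow. Of all genes tested, 1914 were higher in tumor than in bone marrow under quantile normalization and 2601 under plain totals, beside 1745 in the main fit. All genes higher in tumor than in both were not counted under these scalings. Plain totals move all genes of a comparison by the same amount and the stricter filter tests fewer genes, and the cause of the other shifts was not tested. Leaving out 1 library at a time gave 8 to 14 genes higher in tumor than in bone marrow and a median of 0.22 to 0.45 in tumor against blood, with 0.22 without tumor replicate 2. Against blood, Hnrnpk reversed to 0.33 with plain totals and 0.46 with quantile normalization, and against bone marrow to 0.40 and 0.30. Rbm39 in tumor against bone marrow reversed to 0.43 with plain totals. Apart from the stricter filter, 20 of the 22 genes higher in tumor than in blood were called under all 21 other settings, and 3 of the 8 lower (Prpf18, Rbm5 and Sf3b2), whereas 5 of the 14 higher than in bone marrow were (Hnrnpa3, Hnrnpu, Prpf39, Sf3b3 and Tra2a) and 2 of the 4 lower (Rbm5 and Sf3b2). In blood against bone marrow 4 of the 7 higher were (Hnrnpc, Prpf39, Rbm39 and Sf3b1), and 9 of the 15 lower.

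The labels give no shared animal for equal replicate numbers, and deviations of same-numbered libraries correlated between -0.07 and 0.11. Such values cannot decide whether equal numbers shared an experiment, so a pairing is not known and the main fit used none. With the replicate block, 22 genes were higher and 9 lower in tumor than in blood, 12 higher than in bone marrow and 15 lower in blood than in bone marrow. With 3 libraries per compartment, a missed threshold does not show that levels were equal.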
